A study of Homo sapiens with 12 samples.

Results

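The genes described here encode the digestive enzymes of the lysosome, its membrane proteins, and the V-ATPase, the proton pump that acidifies it, in K562 cells treated with nilotinib or imatinib. K562 is an established line from chronic myeloid leukaemia that carries the BCR-ABL1 fusion kinase, and both drugs inhibit that kinase. RNA was taken after 24 h with 0.05 µM nilotinib (AMN107), with 0.5 µM imatinib (STI571), or with DMSO, the solvent control, and 4 arrays were hybridized per treatment. The labels call each dose the drug's IC50 and do not say whether the 4 arrays of a treatment are separate cultures, so the p-values speak for the spread among arrays, part of which may be technical. The members were 37 named genes and the 16 genes with a probe set whose symbol begins with ATP6V, 53 in all. A probe set is the group of short probes that reads a transcript, and those naming a single gene were used, the one with the highest mean where a gene had several. This gave 52 members out of 11963 genes with such a probe set. GLB1, beta-galactosidase, was read only by a probe set shared with TMPPE and has no value of its own. Of the 52, 49 passed a filter on low signal (mean log2 value at or above the 40th percentile of all probe sets, a signal of about 80.6) and were tested together with the rest of 8021 genes. LIPA, TFEB and ATP6V1B1 did not pass.

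Lysosomal hydrolases are made in the secretory pathway, tagged with mannose 6-phosphate and carried to an acidic compartment where they break down proteins, glycans and lipids. The V-ATPase keeps that compartment acidic. Its V1 sector in the cytosol hydrolyses ATP, and its V0 sector in the membrane carries the protons. TFEB, a transcription factor held in the cytosol while the kinase complex mTORC1 is active, binds a promoter element found at many lysosomal genes. The core of that element is the E-box CACGTG, with GT before it and AC after it, and MYC, MAX and USF proteins also bind the core. K562 cells resemble red cell precursors, which lose their lysosomes as they mature.

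The arrays of the 3 treatments differed in more than the members. The median signal over all probe sets was 179 ± 12.1 with nilotinib and 142 ± 8.71 with imatinib, against 119 ± 2.17 with DMSO (SD, n = 4 each), and the groups did not overlap (two-sided exact permutation test, p = 0.0286 for each pair, the smallest that 4 against 4 arrays can give). A 28S rRNA control probe set gave 24015 ± 2137 and 20453 ± 1241 with nilotinib and imatinib, against 5431 ± 135 with DMSO. Bacterial control probe sets had a median of 18.7 ± 8.21 with nilotinib and 8.94 ± 2.07 with imatinib, against 7.40 ± 1.47 with DMSO. The exact permutation test gave p = 0.0286 for nilotinib against DMSO, 0.229 for imatinib against DMSO and 0.0857 between the drugs. The ratio of 3' to 5' actin probes, a sign of RNA or labelling quality, was above 3.5 on nilotinib arrays 1 and 2 and imatinib arrays 5 and 6. Pearson correlations between arrays of a treatment, across one-gene probe sets past the filter, were 0.931 to 0.955 for nilotinib, 0.963 to 0.970 for imatinib and 0.973 to 0.979 for DMSO. Of 11 K562 and red cell genes listed, 8 had a probe set and each of these passed the filter, and their summed signal was 81870 to 89273 with nilotinib, 73290 to 80741 with imatinib and 41426 to 46814 with DMSO. Of 11 monocyte and macrophage markers measured, LYZ and ITGAM passed the filter. LYZ averaged 1986 with nilotinib and 2318 with imatinib, against 2940 with DMSO, and ITGAM 1147 and 814, against 905. CD14, below the filter, averaged 15.5 with nilotinib and 5.70 with imatinib, against 6.16 with DMSO. The summed monocyte and macrophage signal was 3102 to 3847 with nilotinib and 3036 to 3802 with imatinib, against 3749 to 4303 with DMSO. Of 7 lymphocyte markers measured 4 passed, with summed signals of 632 to 1040 with nilotinib, 483 to 733 with imatinib and 580.1 to 698 with DMSO. Of 7 fibroblast markers measured 3 passed, with sums of 939.7 to 1107 with nilotinib, 558 to 841 with imatinib and 387 to 678 with DMSO, and LUM averaged 4.40, 0.942 and 0.577 in the same order. The part of these array and marker differences in the values below was not tested, and in RNA from a whole culture a change in the share of cells in some state and a change in RNA per cell cannot be told apart.

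More of the tested members were higher than lower with both drugs. With nilotinib, 23 of 49 were higher, 10 lower and 16 not called (limma, adjusted p under 0.05), with a median log2 fold change of 0.29. Among all genes tested 34.7% were higher and 23.5% lower, and the median was 0.15. With imatinib, 23 were higher, 6 lower and 20 not called, with a median of 0.26, beside 22.0% higher, 17.3% lower and a median of 0.09 for all genes. Changes of at least 1 on the log2 scale were called for 9 members higher and 2 lower with nilotinib, beside 11.6% and 5.42% of all genes, and for 4 higher and 1 lower with imatinib, beside 4.55% and 2.77%. GAA and ARSA are among these 9, and GAA among these 4. Like CTSO and ATP6V1G2, they had a mean DMSO value below the filter and were tested because of their drug arrays. ATP6V1G2 is also among the members called higher with nilotinib, so the counts of higher calls include genes that entered in this way. Between treated and DMSO arrays there was no overlap for 17 members higher and 7 lower with nilotinib, beside 29.8% and 20.9% of all genes, and for 19 higher and 7 lower with imatinib, beside 21.5% and 17.6%. The drugs share the DMSO arrays. The test of their difference called 3 members higher and 1 lower with nilotinib than with imatinib, beside 5.82% and 8.22% of all genes, and left 45 not called. None differed by 1 or more, beside 0.835% of all genes higher and 0.249% lower, and the arrays of the drugs did not overlap for 2 members higher and 2 lower, beside 9.50% and 8.54%. By call, 18 members were higher with both drugs, 6 were lower with both, and 11 were called with neither. Nilotinib alone passed for 5 members higher and 4 lower, and imatinib alone for 5 higher. No member called with a single drug was called in the test between the drugs, so these counts show no difference between them. The share of all genes with each pattern is not given here.

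These counts rest on the scaling the authors chose, in which the trimmed mean of each array is equal. Where each array was centred on its median instead, the median change of all genes became -0.37 with nilotinib and -0.13 with imatinib. The members then counted 8 higher and 23 lower with nilotinib (median -0.24) and 11 higher and 16 lower with imatinib (median 0.04). Of all 8021 genes, 831 were then higher and 3947 lower with nilotinib, and 820 higher and 2276 lower with imatinib. The share of called genes that were higher, over all genes, was 59.6% with nilotinib as scaled by the authors, 48.8% after quantile normalization, 49.4% after cyclic loess and 17.4% after median centring. For imatinib it was 56.0%, 52.4%, 50.2% and 26.5%. The log2 fold changes below are on the authors' scaling, and the values against DMSO that the centring turned round are given with their groups. Median centring also ended the nilotinib calls of CTSA, CTSZ, NAGLU, ARSA, PSAP, NPC2, SCARB2 and ATP6V1G2, and the imatinib calls of CTSD, CTSK, GUSB, HEXA, SMPD1, LAMP1, CD63, ATP6V0E2, ATP6V1A and ATP6V1H. It added lower calls of CTSS, SGSH, LAMP2, NPC1, ATP6V1C1 and ATP6V1E1 with both drugs, and of ATP6V0A2, ATP6V0C, ATP6V0E1 and ATP6V1G1 with imatinib. Its other added lower calls with nilotinib fell on members whose sign it turned, PPT1, LAMP1 and CD63 among them. CD63 had been called higher on the authors' scaling. After quantile normalization or cyclic loess or both, the nilotinib calls of CTSA, NAGLU, ARSA, SCARB2, ATP6V0A1, ATP6V0C, ATP6V0E1, ATP6V0E2, ATP6V1B2 and ATP6V1G2 were lost, and the imatinib calls of CTSD, CTSK, SMPD1, ATP6V0A1 and ATP6V0E2. Under each of these scalings nilotinib calls were gained for PPT1, LAMP1 and ATP6V1H, which were higher, and for CTSS, SGSH and NPC1, which were lower, and cyclic loess added a lower call of SGSH with imatinib.

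Leaving out the 4 arrays of high actin ratio leaves fewer arrays. The nilotinib calls of GUSB (0.17 without them), HEXA (0.23), ARSA (1.45), SCARB2 (0.47), ATP6V0A1 (-0.17), ATP6V0C (-0.17), ATP6V0E1 (-0.06), ATP6V1B2 (-0.15) and ATP6V1G2 (0.87) were then lost. So were the imatinib calls of CTSK (0.46), PPT1 (0.09), ATP6V0A1 (-0.13) and ATP6V1B2 (-0.22). Gained were higher calls of NEU1 (0.38) and SMPD1 (0.51) with nilotinib and of NAGLU (0.67), NEU1 (0.37) and ATP6V0D1 (0.38) with imatinib, and a lower call of LAMP2 (-0.43) with imatinib.

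**Figure D1:**
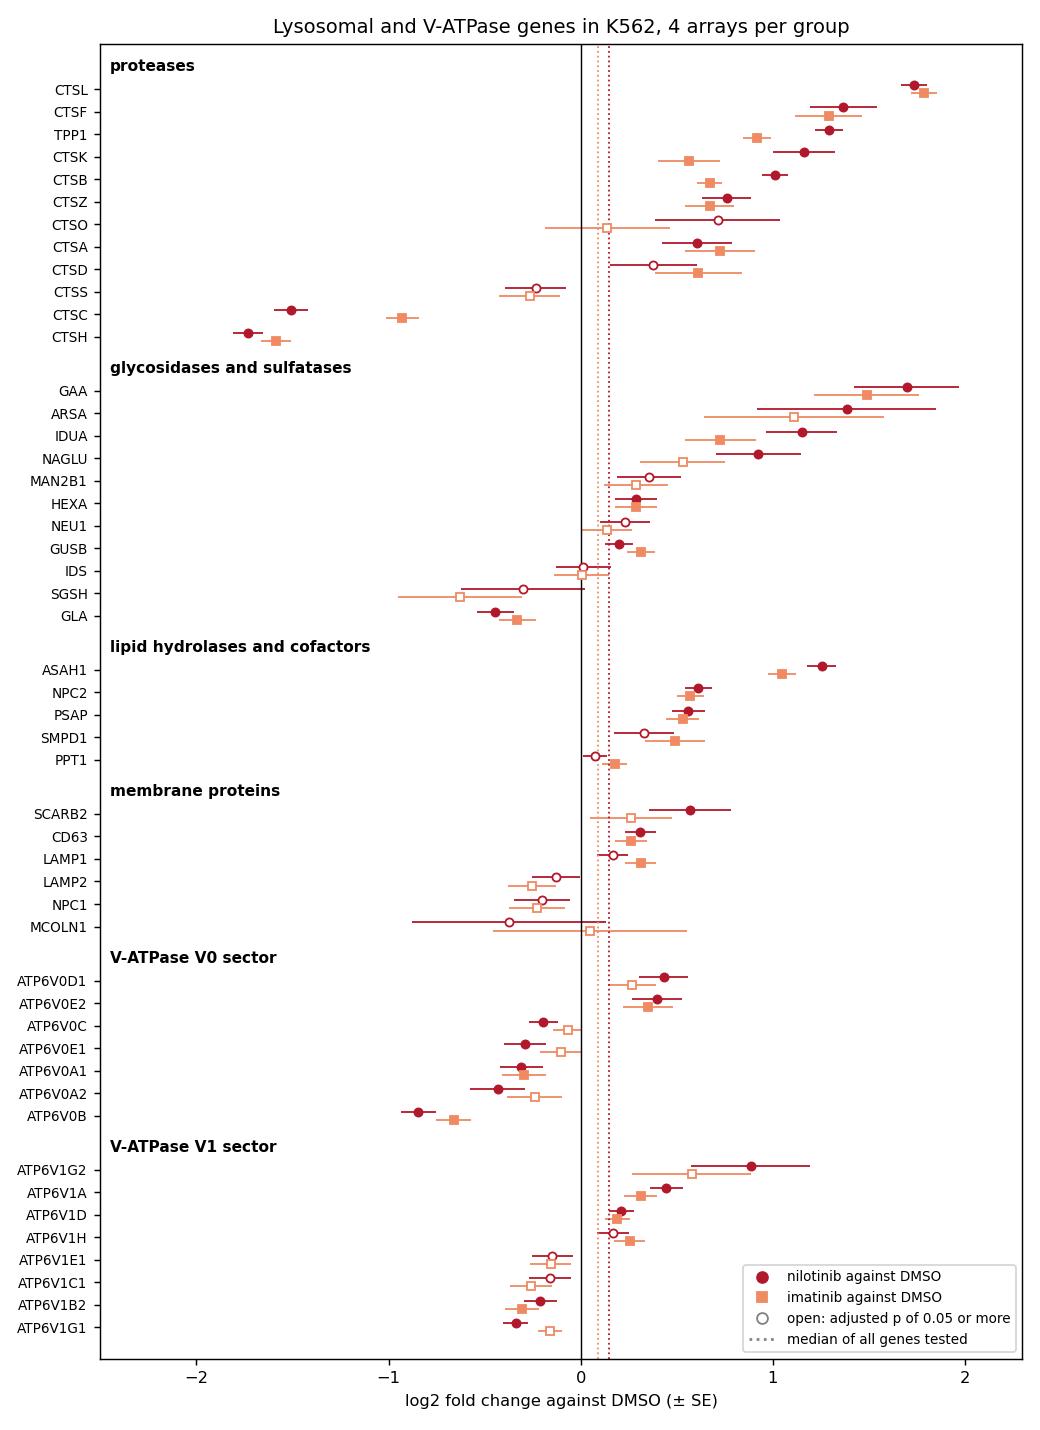
Log2 fold change against DMSO of the 49 tested members, ordered by role, with nilotinib and imatinib side by side and bars of 1 standard error, and dotted lines for the median of all genes tested. Open symbols missed the threshold. CTSL at 1.73 and 1.79 lies at the high end and CTSH at -1.73 and -1.59 at the low end, while the V-ATPase subunits lie closer to 0.

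Proteases were called in both directions. Of 12 tested, 7 were higher and 2 lower with nilotinib (median 0.74), and 8 higher and 2 lower with imatinib (median 0.64). The shares of all genes higher and lower were 34.7% and 23.5% with nilotinib, and 22.0% and 17.3% with imatinib. With median centring these medians were 0.21 and 0.42.

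CTSL, cathepsin L, a cysteine protease that cuts within proteins, rose with both drugs. It had signals of 5684, 5884, 5721 and 6424 on the nilotinib arrays and 6304, 5756, 6353 and 6189 on the imatinib arrays, against 1729, 1717, 1971 and 1669 on the DMSO arrays. Every drug array lay above every DMSO array. The log2 fold change was 1.73 ± 0.07 with nilotinib (adjusted p 1.26e-13) and 1.79 ± 0.07 with imatinib (adjusted p 1.37e-13), where ± is the standard error from limma.

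CTSH, cathepsin H, which removes amino acids from the start of a protein, fell with both drugs. Its signals were 1646, 1805, 1379 and 1698 on the nilotinib arrays and 1854, 1793, 1669 and 1882 on the imatinib arrays, against 5388, 5474, 5331 and 5523 on the DMSO arrays. No drug array reached the lowest DMSO array, and the log2 fold change was -1.73 ± 0.08 (adjusted p 9.25e-13) with nilotinib and -1.59 ± 0.08 (adjusted p 5.4e-12) with imatinib.

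The promoters of CTSL and CTSH, which moved in opposite directions, are shown, 250 bases before to 50 after the start of the gene (RefSeq, GRCh38.p14), because neither holds CACGTG. The first lies at chr9:87725869-87726168 on the plus strand and the second at chr15:78944997-78945296 on the minus strand. Capitals, where present, mark CACGTG.
CTSL: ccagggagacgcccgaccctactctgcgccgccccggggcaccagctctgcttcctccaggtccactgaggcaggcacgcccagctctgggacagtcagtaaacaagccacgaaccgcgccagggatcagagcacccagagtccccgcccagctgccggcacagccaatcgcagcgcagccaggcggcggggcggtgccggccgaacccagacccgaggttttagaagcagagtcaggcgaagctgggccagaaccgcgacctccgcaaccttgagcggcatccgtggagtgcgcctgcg
CTSH: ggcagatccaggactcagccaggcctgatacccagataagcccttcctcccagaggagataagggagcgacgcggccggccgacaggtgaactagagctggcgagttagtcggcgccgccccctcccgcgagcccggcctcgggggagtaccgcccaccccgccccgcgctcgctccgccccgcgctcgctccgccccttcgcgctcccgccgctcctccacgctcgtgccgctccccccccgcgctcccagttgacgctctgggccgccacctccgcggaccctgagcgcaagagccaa

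CTSC, cathepsin C, which removes pairs of amino acids and activates the granule serine proteases of blood cells, also fell. Signals were 1255, 1069.9, 1181 and 964 on the nilotinib arrays and 1600.2, 1841, 1695 and 1555 on the imatinib arrays, against 3153, 3316, 3393 and 2923 on the DMSO arrays. The nilotinib arrays lay below the imatinib arrays, and these below DMSO. The log2 fold change was -1.51 ± 0.09 with nilotinib (adjusted p 3.85e-11) and -0.93 ± 0.09 with imatinib (adjusted p 7.15e-08).

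CTSB, cathepsin B, which cuts within proteins and also removes pairs of amino acids from their ends, had 3515, 3265, 3484 and 3315 on the nilotinib arrays and 2705, 2434, 2681 and 2893 on the imatinib arrays, against 1713, 1689, 1621 and 1669 on the DMSO arrays. The 3 groups did not overlap, and nilotinib was highest. The log2 fold change was 1.01 ± 0.07 with nilotinib (adjusted p 2.69e-10) and 0.67 ± 0.07 with imatinib (adjusted p 1.61e-07).

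TPP1, tripeptidyl peptidase, which removes groups of 3 amino acids, had 4681, 4550.3, 4322 and 3963 on the nilotinib arrays and 3252, 3073, 3434 and 3743 on the imatinib arrays, against 1742, 1732, 1798 and 1816 on the DMSO arrays. It rose by 1.29 ± 0.07 on the log2 scale with nilotinib (adjusted p 2.4e-11) and by 0.92 ± 0.07 with imatinib (adjusted p 5.77e-09), with no overlap between any groups. Of its 3 probe sets past the filter 2 were called higher with each drug, and for CTSB all 4 were.

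CTSF, cathepsin F, a cysteine protease, had 622, 639.7, 787 and 763 on the nilotinib arrays and 656, 444, 940.3 and 701 on the imatinib arrays, against 292, 282, 269 and 210.4 on the DMSO arrays. Both drug groups lay above DMSO, by 1.37 ± 0.17 with nilotinib (adjusted p 2.33e-06) and 1.29 ± 0.17 with imatinib (adjusted p 7.67e-06).

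CTSK, cathepsin K, best known for dissolving collagen in bone, had 366, 562.3, 509 and 538 on the nilotinib arrays and 377, 307, 300.1 and 288 on the imatinib arrays, against 249, 196, 180.3 and 216 on the DMSO arrays. It rose by 1.16 ± 0.16 with nilotinib (adjusted p 6.86e-06) and by 0.56 ± 0.16 with imatinib (adjusted p 0.00925). The imatinib call was lost without the 4 arrays of high actin ratio, where the change was 0.46.

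CTSZ, cathepsin Z, a carboxypeptidase, had 872, 886, 866 and 739 on the nilotinib arrays and 785, 925, 827 and 641 on the imatinib arrays, against 476, 554, 393 and 548 on the DMSO arrays. The drug groups lay above DMSO, by 0.76 ± 0.13 and 0.67 ± 0.13 (adjusted p 5.62e-05 with nilotinib and 0.000323 with imatinib).

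CTSA, cathepsin A, which protects the sialidase NEU1 and beta-galactosidase in a complex, had 461, 470.4, 464 and 493 on the nilotinib arrays and 593, 400.5, 492 and 599 on the imatinib arrays, against 423, 194, 321 and 327 on the DMSO arrays. Its imatinib arrays overlapped the DMSO arrays and its nilotinib arrays did not. The log2 fold change was 0.60 ± 0.18 with nilotinib (adjusted p 0.00846) and 0.72 ± 0.18 with imatinib (adjusted p 0.00366).

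CTSD, cathepsin D, the main aspartic protease of the lysosome, rose with imatinib (0.61 ± 0.23, adjusted p 0.0384) and was not called with nilotinib (0.38 ± 0.23, adjusted p 0.159). Its imatinib call was lost without imatinib 7 or 8 or DMSO 9, 10, 11 or 12 (log2 fold change with each array left out in turn 0.50 to 0.73, largest adjusted p 0.118). CTSO and CTSS, both cysteine proteases, were not called with either drug. CTSO stood at 0.71 ± 0.33 with nilotinib and 0.14 ± 0.33 with imatinib, and CTSS at -0.23 ± 0.16 and -0.27 ± 0.16.

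**Figure D2:**
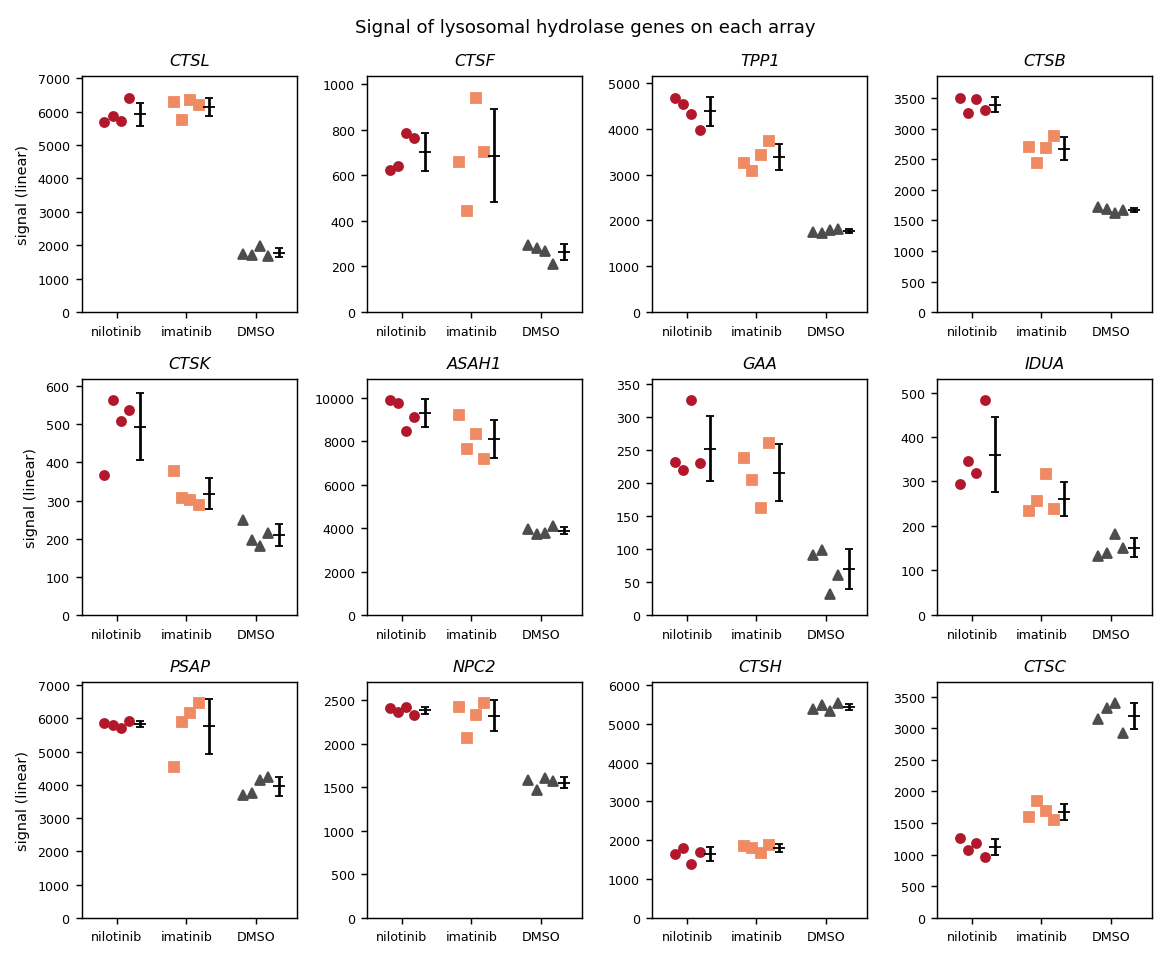
Signal (linear scale, as deposited) of hydrolases on each array, with 1 point per array, nilotinib, imatinib and DMSO from left to right, and the mean and SD beside the points. CTSL and CTSB show drug arrays wholly above DMSO, and CTSH and CTSC wholly below.

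Glycosidases and sulfatases, which strip sugars and sulfate from glycans, were also called higher more often than lower. With nilotinib 6 of 11 were higher, 1 lower and 4 not called (median 0.29), beside 34.7% higher and 23.5% lower of all genes. With imatinib 4 were higher, 1 lower and 6 not called (median 0.29), beside 22.0% and 17.3%. GAA and ARSA, among the 6 higher with nilotinib, had a mean DMSO value below the filter and were tested because of their drug arrays. GAA is also among the 4 higher with imatinib. With median centring the nilotinib median of the group turned to -0.24, while the imatinib one was 0.06.

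GAA, acid alpha-glucosidase, which digests glycogen, rose with both drugs. Its signals were 232, 220.0, 325 and 230.2 on the nilotinib arrays and 237, 205, 162 and 260.2 on the imatinib arrays, against 90.9, 97.8, 31.3 and 61.1 on the DMSO arrays. The drug arrays lay above DMSO, with a log2 fold change of 1.70 ± 0.27 with nilotinib (adjusted p 3.57e-05) and 1.49 ± 0.27 with imatinib (adjusted p 0.000232). The mean DMSO value lay below the filter, so GAA was tested because of its drug arrays, as were ARSA, CTSO and ATP6V1G2.

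The GAA promoter is shown since its CACGTG begins both 76 and 31 bases before the start of the gene. It lies at chr17:80101331-80101630 on the plus strand (RefSeq, GRCh38.p14), with CACGTG in capitals.
GAA: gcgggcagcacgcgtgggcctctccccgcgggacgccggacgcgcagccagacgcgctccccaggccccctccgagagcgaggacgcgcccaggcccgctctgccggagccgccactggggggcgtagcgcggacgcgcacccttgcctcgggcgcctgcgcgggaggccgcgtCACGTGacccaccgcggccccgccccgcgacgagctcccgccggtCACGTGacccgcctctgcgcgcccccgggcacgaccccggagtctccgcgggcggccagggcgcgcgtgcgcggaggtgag

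IDUA, alpha-L-iduronidase, which acts on heparan and dermatan sulfate, had 294, 346, 318 and 482 on the nilotinib arrays and 233, 255, 318 and 239 on the imatinib arrays, against 132, 140.1, 182 and 151 on the DMSO arrays. It rose by 1.15 ± 0.18 with nilotinib (adjusted p 3.39e-05) and 0.73 ± 0.18 with imatinib (adjusted p 0.00397), with no drug array in the DMSO range.

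ARSA, arylsulfatase A, which removes sulfate from sulfatide, had 180.3, 96.8, 120.4 and 179 on the nilotinib arrays and 151, 131, 148 and 53.0 on the imatinib arrays, against 51.9, 132.6, 5.68 and 42.2 on the DMSO arrays. Arrays of every group were spread widely, and the groups overlapped. The log2 fold change was 1.38 ± 0.47 with nilotinib (adjusted p 0.0167) and 1.11 ± 0.47 with imatinib (adjusted p 0.0678). The nilotinib call was lost without DMSO 11 (log2 fold change with each array left out in turn 0.90 to 1.82, largest adjusted p 0.0697).

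GLA, alpha-galactosidase A, which cleaves galactose from glycolipids, fell with both drugs. Signals were 636, 777, 710.4 and 654 on the nilotinib arrays and 741, 822, 722 and 723 on the imatinib arrays, against 951, 973, 881 and 986 on the DMSO arrays. No drug array reached DMSO, and the log2 fold change was -0.44 ± 0.09 with nilotinib (adjusted p 0.000583) and -0.33 ± 0.09 with imatinib (adjusted p 0.00922).

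NAGLU, an enzyme of heparan sulfate breakdown, rose with nilotinib (0.92 ± 0.22, adjusted p 0.00159) and missed the threshold with imatinib (0.53 ± 0.22, adjusted p 0.0644). HEXA, the alpha subunit of hexosaminidase A, which cleaves ganglioside, rose with both, by 0.29 ± 0.11 with nilotinib and 0.29 ± 0.11 with imatinib, and GUSB, beta-glucuronidase, by 0.20 ± 0.07 and 0.31 ± 0.07. Median centring turned both nilotinib values, to -0.24 for HEXA and -0.32 for GUSB. Not all calls of these small changes held when each array was left out in turn. With nilotinib the calls were lost for GUSB without nilotinib 2 or 3 or DMSO 12 (log2 fold change with each array left out in turn 0.16 to 0.25, largest adjusted p 0.0866) and for HEXA without nilotinib 1, 2 or 3 or DMSO 10 or 12 (log2 fold change with each array left out in turn 0.19 to 0.37, largest adjusted p 0.133), and with imatinib for HEXA without imatinib 5, 7 or 8 or DMSO 10 or 12 (log2 fold change with each array left out in turn 0.20 to 0.37, largest adjusted p 0.164). MAN2B1, NEU1, IDS and SGSH, enzymes for mannose, sialic acid, iduronate sulfate and heparan sulfate, were called with neither drug. Their log2 fold changes were 0.36 ± 0.17, 0.23 ± 0.13, 0.01 ± 0.14 and -0.30 ± 0.32 with nilotinib, and 0.29 ± 0.17, 0.14 ± 0.13, 0.00 ± 0.14 and -0.63 ± 0.32 with imatinib. Of the 5 IDS probe sets past the filter, 2 were called higher with nilotinib, and the values ran from -0.44 to 1.03. Median centring turned the nilotinib value of IDS to -0.51.

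Enzymes and cofactors of lipid breakdown rose in most cases. With nilotinib 3 of 5 tested were higher and 0 lower, and with imatinib all 5 were higher, with medians of 0.56 and 0.53. Of all genes, 34.7% were higher and 23.5% lower with nilotinib, and 22.0% and 17.3% with imatinib. With median centring the medians were 0.04 and 0.31. ASAH1, acid ceramidase, had 9886, 9762, 8459 and 9146 on the nilotinib arrays and 9193, 7633, 8361 and 7185 on the imatinib arrays, against 3962, 3732, 3778 and 4085 on the DMSO arrays. No drug array fell in the DMSO range. The log2 fold change was 1.25 ± 0.07 with nilotinib (adjusted p 5.39e-11) and 1.05 ± 0.07 with imatinib (adjusted p 1.34e-09). The probe set of ASAH1, like those of CTSS, IDS and ATP6V0E1, has the suffix for probes that can match other transcripts. Another ASAH1 probe set gave 1.39 with nilotinib and 1.08 with imatinib. The last of its 3 past the filter gave 0.29 and 0.25, and was called higher with nilotinib alone, so the size depends on the probe set.

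PSAP, the precursor of the saposins that present lipids to hydrolases, rose by 0.56 ± 0.09 with nilotinib and 0.53 ± 0.09 with imatinib (adjusted p 2.33e-05 and 6.56e-05). NPC2, which hands cholesterol to NPC1, rose by 0.61 ± 0.07 and 0.57 ± 0.07 (adjusted p 6.7e-07 and 2.65e-06). SMPD1, acid sphingomyelinase, and PPT1, which removes fatty acids from proteins, were called with imatinib at 0.49 ± 0.16 and 0.18 ± 0.06 and not with nilotinib at 0.33 ± 0.16 and 0.08 ± 0.06. These imatinib calls were lost for SMPD1 without imatinib 8 or DMSO 12 (log2 fold change with each array left out in turn 0.43 to 0.56, largest adjusted p 0.0563) and for PPT1 without imatinib 5 or 6 or DMSO 10, 11 or 12 (log2 fold change with each array left out in turn 0.14 to 0.22, largest adjusted p 0.106). With median centring PPT1 turned to -0.45 with nilotinib (adjusted p 0.000192) and -0.05 with imatinib. With nilotinib it was called higher at 0.26 (adjusted p 0.00090) once arrays were quantile normalized, and at 0.20 (adjusted p 0.00989) under cyclic loess. LIPA, the acid lipase, lay below the filter, with 116 to 227 on nilotinib arrays and 51.3 to 93.3 on imatinib arrays, against 8.71 to 79.9 on DMSO arrays, and was not tested.

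Of 6 membrane proteins tested, 2 were higher and 0 lower with nilotinib (median 0.02), and 2 higher and 0 lower with imatinib (median 0.16), beside 34.7% and 22.0% of all genes higher. The median turned to -0.50 with nilotinib and -0.07 with imatinib under median centring, and to -0.07 with imatinib under quantile normalization and cyclic loess. CD63, a tetraspanin of lysosomes and exosomes, rose by 0.31 ± 0.08 with nilotinib and 0.26 ± 0.08 with imatinib (adjusted p 0.00331 and 0.0155). The imatinib call was lost without imatinib 8 (log2 fold change with each array left out in turn 0.19 to 0.32, largest adjusted p 0.0694), and median centring turned the nilotinib value to -0.21. SCARB2, a receptor that carries beta-glucocerebrosidase to lysosomes, was called with nilotinib (0.57 ± 0.21, adjusted p 0.0277) and not with imatinib (0.26 ± 0.21, adjusted p 0.35). The nilotinib call was lost without nilotinib 2 or 4 or DMSO 9 or 10 (log2 fold change with each array left out in turn 0.51 to 0.66, largest adjusted p 0.0629). LAMP1, one of the most abundant glycoproteins of the lysosomal membrane, was called with imatinib (0.31 ± 0.08, adjusted p 0.00403) and not with nilotinib (0.17 ± 0.08, adjusted p 0.0807), whose value turned to -0.36 with median centring. With nilotinib it was called higher after quantile normalization (0.35, adjusted p 0.00099), after cyclic loess (0.29, adjusted p 0.00389) and without nilotinib array 4 (0.25, adjusted p 0.00741). Another LAMP1 probe set was called higher with both drugs, at 0.28 with nilotinib and 0.32 with imatinib. The last of its 3 past the filter gave -0.52 and 0.30 and was called with neither. LAMP2, NPC1, which moves cholesterol out of the lysosome, and MCOLN1, a cation channel, were called with neither drug. LAMP2 stood at -0.13 ± 0.13 with nilotinib and -0.25 ± 0.13 with imatinib, NPC1 at -0.20 ± 0.15 and -0.23 ± 0.15, and MCOLN1 at -0.37 ± 0.50 and 0.05 ± 0.50. For LAMP2 the other 2 probe sets were called higher with each drug, up to 0.41 with nilotinib and 0.42 with imatinib, and the mean of its 3 probe sets was 0.22 with nilotinib.

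The LAMP1 promoter is shown since it holds CACGTG 6 times. Those begin 192, 176, 159, 142, 28 and 1 bases before the start of the gene. It lies at chr13:113296989-113297288 on the plus strand (RefSeq, GRCh38.p14).
LAMP1: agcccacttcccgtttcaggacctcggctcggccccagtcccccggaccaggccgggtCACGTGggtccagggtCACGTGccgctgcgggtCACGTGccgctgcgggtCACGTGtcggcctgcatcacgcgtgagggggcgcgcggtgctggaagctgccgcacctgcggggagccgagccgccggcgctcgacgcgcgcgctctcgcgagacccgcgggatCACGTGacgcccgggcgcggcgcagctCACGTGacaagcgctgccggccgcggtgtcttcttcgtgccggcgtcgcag

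V-ATPase subunits were called in both directions. Of the 15 tested, 5 were higher and 7 lower with nilotinib (median -0.16), beside 34.7% and 23.5% of all genes. With imatinib 4 were higher and 3 lower (median -0.10), beside 22.0% and 17.3%. Both imatinib shares, and the share higher with nilotinib, were close to those of all genes. ATP6V1G2, among the 5 higher with nilotinib, was tested because of its drug arrays. TCIRG1, also a subunit of the pump, has a symbol outside the rule and is given with the accessory genes below. With median centring 0 of the 15 were higher and 11 lower with nilotinib, and 0 higher and 9 lower with imatinib. Of all 8021 genes, 831 were higher and 3947 lower with nilotinib under that centring, and 820 and 2276 with imatinib. The other 34 members counted 18 higher and 3 lower with nilotinib (median 0.37), and 19 higher and 3 lower with imatinib (median 0.31). With median centring those 34 had medians of -0.16 and 0.09.

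In the V0 sector 2 of 7 subunits were higher and 5 lower with nilotinib, beside 34.7% and 23.5% of all genes. With imatinib 1 was higher and 2 lower, beside 22.0% and 17.3%. ATP6V0B, a proteolipid of the ring that turns in the membrane, fell with both drugs. Its signals were 1301, 1207, 1569 and 1246 on the nilotinib arrays and 1380.3, 1468, 1467 and 1725 on the imatinib arrays, against 2383, 2596, 2289 and 2305 on the DMSO arrays. Every drug array lay below every DMSO array, and the log2 fold change was -0.84 ± 0.09 with nilotinib (adjusted p 2.68e-07) and -0.66 ± 0.09 with imatinib (adjusted p 9.79e-06).

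ATP6V0A1, an a subunit, through which protons pass, had 808, 792, 977 and 980.1 on the nilotinib arrays and 701, 898, 1003 and 1009 on the imatinib arrays, against 1118, 1090.3, 1117 and 1073 on the DMSO arrays. It was lower by both comparisons, at -0.31 ± 0.11 with nilotinib (adjusted p 0.0249) and -0.29 ± 0.11 with imatinib (adjusted p 0.0443). Its second probe set went the other way, at 1.43 with nilotinib and 1.14 with imatinib, so the direction for this gene depends on the probe set. The mean of both probe sets gave 0.56 with nilotinib and 0.42 with imatinib. The nilotinib call of ATP6V0A1 was lost without nilotinib 1 or 2 or DMSO 9 or 11 (log2 fold change with each array left out in turn -0.36 to -0.26, largest adjusted p 0.0745). Its imatinib call was lost without imatinib 5 or 6 or DMSO 9, 10, 11 or 12 (log2 fold change with each array left out in turn -0.35 to -0.18, largest adjusted p 0.177).

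ATP6V0A2, another a subunit, had 428, 478, 333 and 394 on the nilotinib arrays and 558, 452, 427 and 433 on the imatinib arrays, against 604, 649, 461 and 512 on the DMSO arrays. ATP6V0E1, a small membrane subunit, had 3401, 2668, 4151 and 4172 on the nilotinib arrays and 4448, 3827, 4079 and 3787 on the imatinib arrays, against 4173, 4006, 4441 and 4719 on the DMSO arrays. Both overlapped between drug and DMSO arrays, and both were called lower with nilotinib alone, at -0.43 ± 0.14 (adjusted p 0.0143) and -0.29 ± 0.11 (adjusted p 0.0309). Another of the 5 probe sets of ATP6V0E1 was called higher, at 0.22. The second ATP6V0A2 probe set past the filter gave 0.09 with nilotinib and was not called. The nilotinib calls were lost for ATP6V0A2 without nilotinib 3 or DMSO 10 (log2 fold change with each array left out in turn -0.52 to -0.34, largest adjusted p 0.0577) and for ATP6V0E1 without nilotinib 1 or 2 or DMSO 11 or 12 (log2 fold change with each array left out in turn -0.37 to -0.15, largest adjusted p 0.142).

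ATP6V0C, the main proteolipid of the ring, was lower with nilotinib (-0.19 ± 0.08, adjusted p 0.0365) and not called with imatinib (-0.07 ± 0.08). ATP6V0D1, which joins the ring to the stalk, was higher with nilotinib (0.43 ± 0.13, adjusted p 0.00687) and not called with imatinib (0.27 ± 0.13). ATP6V0E2 was higher with both, at 0.40 ± 0.13 and 0.35 ± 0.13. With median centring the nilotinib values of ATP6V0D1 and ATP6V0E2 turned to -0.09 and -0.12. The nilotinib calls were lost for ATP6V0C without nilotinib 1, 2 or 3 or DMSO 10 or 12 (log2 fold change with each array left out in turn -0.22 to -0.16, largest adjusted p 0.109) and for ATP6V0E2 without nilotinib 2 (log2 fold change with each array left out in turn 0.31 to 0.52, largest adjusted p 0.0531), and the imatinib call for ATP6V0E2 without imatinib 6, 7 or 8 or DMSO 9, 10 or 12 (log2 fold change with each array left out in turn 0.31 to 0.39, largest adjusted p 0.102).

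The ATP6V0B promoter is shown because it holds CACGTG though the gene fell. The motif begins 57 and 39 bases before the start. It lies at chr1:43974710-43975009 on the plus strand (RefSeq, GRCh38.p14).
ATP6V0B: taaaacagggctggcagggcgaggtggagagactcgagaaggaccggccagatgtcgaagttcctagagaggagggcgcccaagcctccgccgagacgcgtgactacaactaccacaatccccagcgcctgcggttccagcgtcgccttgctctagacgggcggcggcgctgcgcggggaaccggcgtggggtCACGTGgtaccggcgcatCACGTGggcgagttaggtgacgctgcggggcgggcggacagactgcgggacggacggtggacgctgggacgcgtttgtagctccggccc

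In the V1 sector 3 of 8 subunits were higher and 2 lower with nilotinib, beside 34.7% and 23.5% of all genes. With imatinib 3 were higher and 1 lower, beside 22.0% and 17.3%. ATP6V1G1, part of the stalk that holds the sectors together, had 4429.5, 4288, 3850.2 and 4336 on the nilotinib arrays and 5012, 4757, 4592 and 4769.7 on the imatinib arrays, against 4987, 5262, 5439.7 and 5698 on the DMSO arrays. It was lower with nilotinib (-0.34 ± 0.06, adjusted p 0.000187) and missed the threshold with imatinib (-0.16 ± 0.06, adjusted p 0.0553). Its promoter is shown because it holds the whole 10-base element, with GT before and AC after the CACGTG in capitals, which begins 58 bases before the start. It lies at chr9:114587519-114587818 on the plus strand (RefSeq, GRCh38.p14).
ATP6V1G1: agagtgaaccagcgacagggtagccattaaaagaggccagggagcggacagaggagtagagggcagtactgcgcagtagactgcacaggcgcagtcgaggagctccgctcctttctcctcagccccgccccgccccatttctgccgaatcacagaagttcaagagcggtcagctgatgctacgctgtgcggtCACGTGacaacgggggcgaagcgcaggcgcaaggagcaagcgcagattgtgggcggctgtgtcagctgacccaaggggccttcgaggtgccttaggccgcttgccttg

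ATP6V1B2, a subunit of the ATP-hydrolysing head, had 1185, 1097, 1262 and 1207 on the nilotinib arrays and 1013, 1076, 1215 and 1145 on the imatinib arrays, against 1462, 1217, 1451 and 1382 on the DMSO arrays. It was lower with both drugs, at -0.21 ± 0.09 with nilotinib (adjusted p 0.0461) and -0.30 ± 0.09 with imatinib (adjusted p 0.00903). The nilotinib call was lost without nilotinib 1, 2 or 4, imatinib 6 or DMSO 9, 11 or 12 (log2 fold change with each array left out in turn -0.27 to -0.17, largest adjusted p 0.126).

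ATP6V1A, the catalytic subunit, rose by 0.45 ± 0.08 with nilotinib (adjusted p 0.000176) and 0.31 ± 0.08 with imatinib (adjusted p 0.00599), and ATP6V1D, in the rotor, by 0.21 ± 0.07 and 0.19 ± 0.07. With median centring ATP6V1A turned to -0.08 with nilotinib, and ATP6V1D to -0.31 with nilotinib and -0.04 with imatinib. ATP6V1H, which regulates the head, was called higher with imatinib (0.25 ± 0.08, adjusted p 0.0198) and not with nilotinib (0.17 ± 0.08), where median centring turned it to -0.36 and quantile normalization and cyclic loess gave higher calls at 0.22 and 0.26. ATP6V1G2, the G subunit of neurons, was called with nilotinib (0.88 ± 0.31, adjusted p 0.02) and not with imatinib (0.58 ± 0.31). The calls were lost for ATP6V1D without imatinib 5 or 8 or DMSO 9, 10 or 11 (log2 fold change with each array left out in turn 0.17 to 0.21, largest adjusted p 0.0664) and for ATP6V1H without imatinib 8 or DMSO 9 (log2 fold change with each array left out in turn 0.23 to 0.29, largest adjusted p 0.0549) with imatinib, and for ATP6V1G2 without DMSO 9 or 12 (log2 fold change with each array left out in turn 0.75 to 1.06, largest adjusted p 0.0666) with nilotinib. ATP6V1C1 and ATP6V1E1 were called with neither drug, at -0.16 ± 0.11 and -0.15 ± 0.11 with nilotinib and -0.26 ± 0.11 and -0.16 ± 0.11 with imatinib. ATP6V1B1, the kidney and inner ear form of the B subunit, lay below the filter, with 14.0 to 139 on nilotinib arrays, 19.6 to 75.6 on imatinib arrays and 30.8 to 80.0 on DMSO arrays. ATP6V1F is on a probe set shared with LOC101927180 and is no member.

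**Figure D3:**
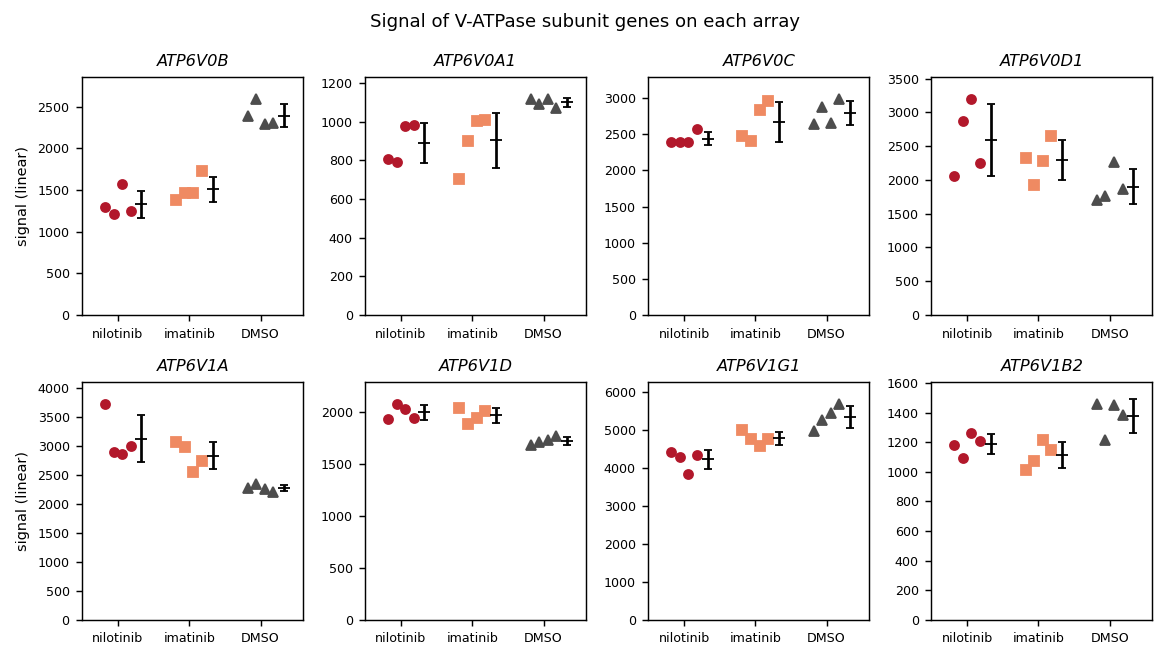
Signal (linear scale, as deposited) of V-ATPase subunits on each array, with 1 point per array, nilotinib, imatinib and DMSO from left to right, and the mean and SD beside the points. ATP6V0B and ATP6V1G1 sit below DMSO with nilotinib, and ATP6V1A and ATP6V1D sit above it with both drugs.

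TFEB, which drives many lysosomal genes, lay below the filter and was not tested. Its signals were 142, 63.0, 57.4 and 144 on the nilotinib arrays and 186, 26.3, 30.8 and 31.8 on the imatinib arrays, against 17.7, 17.8, 13.1 and 81.1 on the DMSO arrays. Nilotinib arrays 1 and 4 were higher than nilotinib arrays 2 and 3, imatinib array 5 stood far above the other imatinib arrays, and DMSO array 12 far above the other DMSO arrays. Of all 156 sets of 4 arrays examined for such gaps, 12 held one.

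The drugs, which were given at different doses, differed by test for 4 proteases on the probe sets used. The 95% interval of the difference is given here, on the log2 scale. CTSC was lower with nilotinib than with imatinib by 0.58 (-0.76 to -0.40, adjusted p 0.000347), and higher with nilotinib were TPP1 by 0.37 (0.22 to 0.53, adjusted p 0.00268), CTSB by 0.34 (0.20 to 0.48, adjusted p 0.00291) and CTSK by 0.60 (0.26 to 0.94, adjusted p 0.0203). Nilotinib and imatinib arrays overlapped for CTSK and not for the other 3. With each probe set tested apart, 1 of the 3 of TPP1 and all 4 of CTSB were called higher with nilotinib. So were a second probe set of ASAH1 (0.32) and of ATP6V1A (0.82), so which members differed depends on the probe set. The arrays with a high actin ratio, 2 of each drug, were set apart. Without them the difference was -0.60 for CTSC (adjusted p 0.00864), 0.80 for CTSK (0.0373), 0.29 for CTSB (0.0652) and 0.21 for TPP1 (0.179). Within them it was -0.56 for CTSC (0.0763), 0.40 for CTSK (0.396), 0.40 for CTSB (0.0934) and 0.54 for TPP1 (0.0321). The CTSK call was lost without nilotinib 2 or 4 or imatinib 6 or 8 (log2 fold change with each array left out in turn 0.53 to 0.73, largest adjusted p 0.0578). With median centring CTSC stayed called and CTSB, TPP1 and CTSK did not. For CTSL the difference was -0.05 with an interval of -0.20 to 0.09, and for CTSH -0.14 with -0.31 to 0.02.

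**Figure D4:**
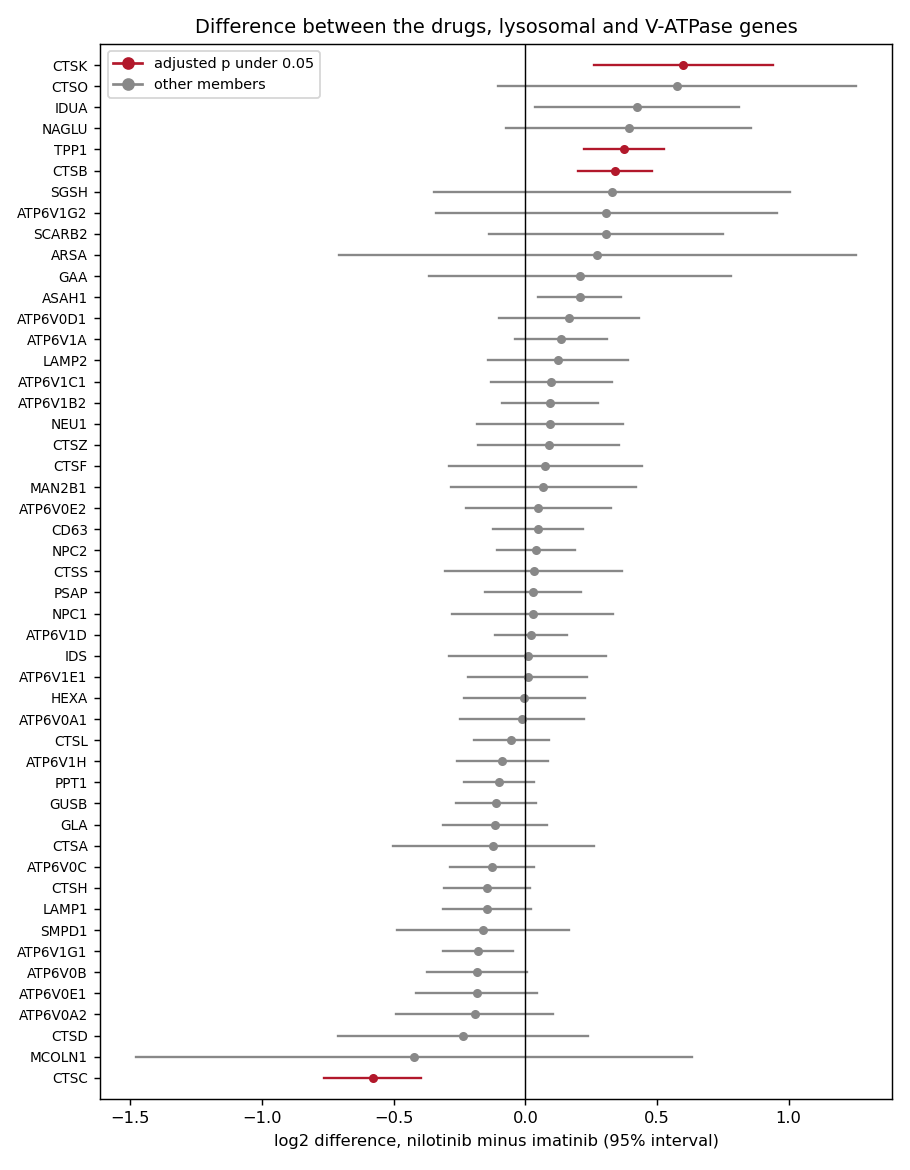
Log2 difference of nilotinib minus imatinib for the 49 tested members, with the 95% interval as a bar, sorted by size. CTSK, TPP1, CTSB and CTSC, in colour, passed the threshold, and most other intervals span 0.

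Promoter sequence was searched for CACGTG, which reads the same on both strands, in the 37 members that the RefSeq promoter table lists. It was present in 12 of 37 (32.4%), beside 7.26% of all 35116 promoters, 8.78% of 27305 genes and 13.1% of the 6638 tested genes with an entry. The 10-base form, with GT before it and AC after it, was present in GAA, MCOLN1 and ATP6V1G1 (8.11%), beside 0.353% of promoters and 1.01% of tested genes. Of the 12 tested members with CACGTG, 6 were higher and 2 lower with nilotinib (median 0.34) and 7 higher and 1 lower with imatinib (median 0.29). Of the 21 tested members without it, 9 were higher and 6 lower with nilotinib (median 0.20) and 9 higher and 4 lower with imatinib (median 0.19). Members with the motif ran from -0.84 (ATP6V0B) to 1.70 (GAA) with nilotinib, and those without from -1.73 (CTSH) to 1.73 (CTSL). GAA was tested because of its drug arrays, and the next highest member with the motif was CTSF at 1.37. Over all 867 tested genes with the motif, 278 were higher and 242 lower with nilotinib (median 0.08), and 197 higher and 192 lower with imatinib (median 0.04). Over the 5771 without it, 1989 were higher and 1366 lower with nilotinib (median 0.14), and 1252 higher and 995 lower with imatinib (median 0.09). A match is a description of these 300 bases and shows no binding.

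**Figure D5:**
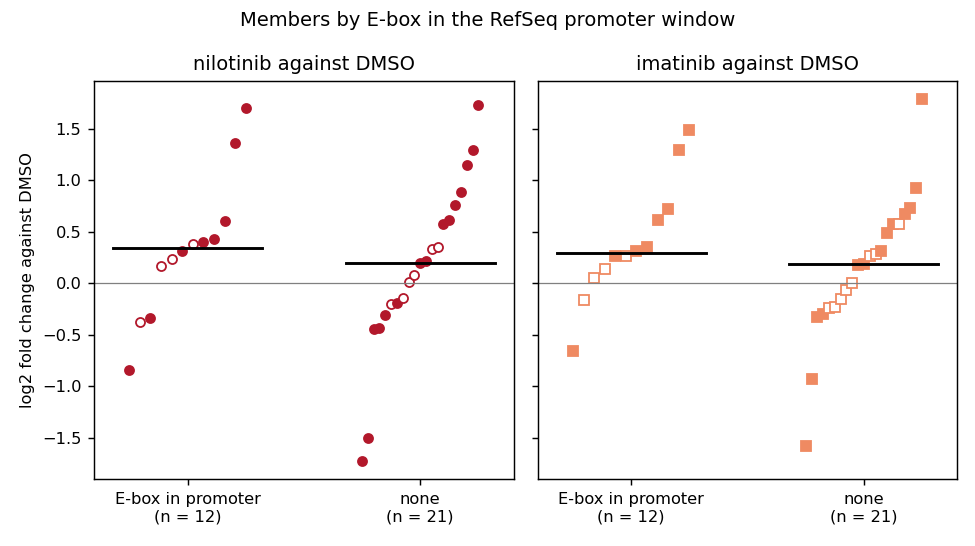
Log2 fold change against DMSO of tested members with and without CACGTG in the 300-base promoter, for nilotinib and imatinib, with 1 point per gene. Both sets spread over both signs, with medians of 0.34 and 0.20 for nilotinib and 0.29 and 0.19 for imatinib.

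Genes that work with the members were set beside them, from lists of the pathway. For each count below on the authors' scaling, the shares of all genes higher and lower were 34.7% and 23.5% with nilotinib. With imatinib these shares were 22.0% and 17.3%. For the counts with median centring, 831 of all 8021 genes were higher and 3947 lower with nilotinib, and 820 and 2276 with imatinib. Of 14 tested further lysosomal hydrolases, 11 were higher and 0 lower with nilotinib (median 0.80), and 8 higher and 0 lower with imatinib (median 0.50). With median centring 2 of these 14 were higher with nilotinib (median 0.27) and 4 with imatinib (median 0.27), and 0 lower with either. Among them were GALNS, which acts on keratan sulfate, at 1.20 with nilotinib and 1.00 with imatinib, and CTSV, a relative of CTSL, at 1.07 and 0.93. Of 8 tested V-ATPase accessory and assembly genes, 6 were higher and 0 lower with each drug (medians 0.70 and 0.53), with DMXL1 at 1.53 and 1.39, ROGDI at 1.56 and 1.16, WDR7 at 0.98 and 0.90, and TCIRG1, an a subunit, at 0.86 and 0.65. With median centring 3 of the 8 were higher and 2 lower with nilotinib, and 3 were higher and 0 lower with imatinib. TCIRG1 missed the threshold with both drugs under median centring, quantile normalization and cyclic loess, at 0.33 to 0.46 with nilotinib and 0.43 to 0.47 with imatinib. Of 17 tested further membrane proteins, 7 were higher and 3 lower with nilotinib and 4 higher and 2 lower with imatinib, including SIDT2 at 1.26 with each drug and LAMP3 at -1.18 with nilotinib. Of 27 tested sorting genes, 10 were higher and 3 lower with nilotinib and 8 higher and 3 lower with imatinib. Of 26 genes of the TFEB relatives and of mTORC1 at the lysosome, 9 were higher and 8 lower with nilotinib and 7 higher and 4 lower with imatinib, among them NPRL3, part of a complex that restrains mTORC1, at 1.97 and 1.56, and SEH1L at -1.15 and -0.75. Of 16 endosome genes, 5 were higher and 4 lower with nilotinib and 5 higher and 3 lower with imatinib. With median centring these 4 counts with nilotinib were 4 higher and 6 lower for the membrane proteins, 1 and 13 for sorting, 4 and 15 for mTORC1 and the TFEB relatives, and 1 and 12 for the endosome. With imatinib they were 3 and 3, 3 and 5, 2 and 6, and 2 and 5 in the same order.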

How the data were processed

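Total RNA of K562 cells (12 arrays, 4 per treatment by title) was biotin-labelled and read on Affymetrix U133 A 2.0 arrays, per the labels' protocols. The deposited signal intensities are linear. The authors made them with MAS5, as the submitters' processing notes list it (its version is not given in the sources used here). Every array had a mean of 499.9 once the outer 2% on either side was trimmed, so no further scaling was done. MAS5 scales each array by a single factor, so a change in the spread of signal between treatments shifts the median.

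Of 22277 probe sets, 62 controls were left out. Of the other 22215, 19064 named 1 gene, 1043 several and 2108 none in the annotation given, and the last 2 kinds were not tested. Values were taken as log2(signal + 16), which understates changes of dim genes. Probe sets under the 40th percentile of mean log2 value were dropped and the highest-mean probe set per gene was kept, leaving 8021 genes. They were tested with limma 3.58.1 (R 4.3.3), with 1 mean per treatment, 9 residual degrees of freedom and a variance trend, and Benjamini-Hochberg adjustment within each of 3 comparisons. The threshold was an adjusted p of 0.05, and the median standard error was 0.146. Array measures used exact permutation tests. On simulated data of 8021 genes, changes of 0.5, 1 and 2 were recovered in 44.8%, 83.6% and 98.5% of changed genes for nilotinib against DMSO, in 44.8%, 70.1% and 97.0% for imatinib against DMSO, and in 50.7%, 76.1% and 95.5% for nilotinib against imatinib. The simulation changed 66 or 67 genes by each amount, far fewer than were called against DMSO in the data, so these rates need not hold for the data. The number of arrays limits the precision.

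The members and all lists were chosen with earlier results of these data known. Every member could be named. Per-array values are given for up to 8 called members per direction and drug with the largest change, for TFEB and for members that differed between the drugs, and neighbours are up to 4 called genes per list by size. Promoters are from RefSeq (GRCh38.p14). Alternatives were other pseudocounts (1 and 64), other filters, quantile normalization, median centring, cyclic loess, averaging all probe sets of a gene, variance models without a trend or with array weights, only the groups compared, arrays of high actin ratio apart and each array left out. Testing each probe set separately was added after seeing the data. Figures used matplotlib 3.10.9 in Python 3.11.15.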

Additional observations from a re-analysis of the deposited data

Results flagged for a closer look

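Within a treatment, 1 array of the 4 stood apart from the other 3 for 12 of 156 sets of member signals (Dixon's test at 95%, by which chance flags about 1 in 20). The highest array stood apart for GAA on nilotinib array 3 (325), ATP6V1A on nilotinib array 1 (3739), ATP6V0C on nilotinib array 4 (2575), TFEB on imatinib array 5 (186) and on DMSO array 12 (81.1), IDS on DMSO array 10 (791) and CD63 on DMSO array 12 (5972). The lowest stood apart for CTSZ and HEXA on nilotinib array 4 (739 and 1033), MAN2B1 on nilotinib array 1 (224), CTSS on imatinib array 8 (264) and CTSD on DMSO array 10 (104).

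Probe sets outside the tests also carried signal. The probe set that GLB1 shares with TMPPE averaged 2609 with nilotinib and 2388 with imatinib, against 1374 ± 49.5 with DMSO (SD, n = 4 each). The probe set that ATP6V1F shares with LOC101927180 averaged 4331 and 4841, against 3711 ± 364 with DMSO. The 28S rRNA control averaged 24015 with nilotinib and 20453 with imatinib, against 5431 with DMSO.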

How the results depend on the processing

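No paired analysis was possible because the replicate numbers of the 3 treatments do not overlap. Of the calls against DMSO, 13 of 33 with nilotinib and 15 of 29 with imatinib held under every alternative that tested them, and 0 of the 4 calls between the drugs. The 60th percentile filter tested 28 of those 33 and 27 of those 29. Median centring moved most, to 8 members higher, 23 lower and a median of -0.24 with nilotinib, to 11, 16 and 0.038 with imatinib, and to 0, 18 and -0.27 between the drugs. Over all 8021 genes it called 831 higher and 3947 lower with nilotinib, 820 and 2276 with imatinib, and 76 and 2646 between the drugs. It turned with nilotinib GUSB (-0.32), HEXA (-0.24), IDS (-0.51), PPT1 (-0.45), LAMP1 (-0.36), CD63 (-0.21), ATP6V0D1 (-0.090), ATP6V0E2 (-0.12), ATP6V1A (-0.076), ATP6V1D (-0.31) and ATP6V1H (-0.36), with imatinib PPT1 (-0.049) and ATP6V1D (-0.035), and between the drugs PSAP (-0.27), NPC2 (-0.26), CD63 (-0.25) and ATP6V1D (-0.28), by construction, since it shifts every gene of an array alike. Averaging all probe sets of a gene turned ATP6V0A1 (0.56 with nilotinib, 0.42 with imatinib) and LAMP2 with nilotinib (0.22), gave a nilotinib median of 0.35 and called 2 lower between the drugs. The nilotinib median was 0.21 under the 60th percentile filter, which tests fewer genes, and 0.20 with cyclic loess. Quantile normalization called 5 higher between the drugs, and the cause of these last shifts was not tested. Without the 4 arrays of high actin ratio, which leaves fewer arrays, 6 were lower with nilotinib (median 0.35), the imatinib median was 0.35, and 1 was higher between the drugs. Within those arrays 1 was higher and 0 lower. Leaving out 1 array gave 20 to 24 higher and 6 to 10 lower with nilotinib (6 without nilotinib array 2, median 0.22 to 0.30), 17 to 23 higher and 5 to 7 lower with imatinib (median 0.22 to 0.29), and 2 to 4 higher and 1 lower between the drugs (median 0.01 to 0.04). With 2 higher, nilotinib array 2 or 4 or imatinib array 6 or 8 had been left out.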
